A study of Mus musculus with 8 samples.

Results

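The 38 genes described here carry out the unfolded protein response of the endoplasmic reticulum (ER) and the ATF4 branch of the integrated stress response. They were taken from a list of gene symbols, and all 38 were found among the 47937 genes of the count tables. RNA was sequenced from bone marrow-derived dendritic cells (BMDCs), which are grown from mouse bone marrow in the cytokine GM-CSF. There were 4 groups with 2 libraries each. WT cells were unstimulated in the first and stimulated with lipopolysaccharide (LPS, a bacterial cell wall product that engages TLR4) in the second. The other two held 3xGrk-/- cells without and with LPS. In the study's description of its mice and BMDC cultures, the mutant donors had floxed Grk2 and Grk6 (Grk2 fl/fl, Grk6 fl/fl), deleted by Vav-iCre from early stages of blood cell formation, on a Grk3-/- background, so that 3 G-protein coupled receptor kinases were targeted. The WT cells carried no Cre, all donors were adult mice, and culture lasted 8 to 9 days with 20 ng/ml GM-CSF before 1 day with or without 20 ng/ml LPS. The labels give only the names WT and Grk 3xKO, untreated and LPS.

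Proteins that enter the ER are folded there by chaperones, and unfolded protein is sensed by the kinases IRE1 (Ern1) and PERK (Eif2ak3) and by the membrane-bound factor ATF6. IRE1 splices Xbp1 mRNA, and XBP1 and cleaved ATF6 switch on chaperones and the machinery that moves misfolded protein out for degradation (ERAD). PERK slows translation, and other kinases do the same when amino acids are short or virus is sensed. Under slowed translation ATF4 is made, which drives amino acid synthesis and transport, tRNA synthetases and the factors CHOP (Ddit3), ATF3 and TRIB3. Dendritic cells are known for activity of the IRE1 and XBP1 branch even without an added stress.

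Several of these genes carry the ER stress response element (ERSE, CCAAT and CCACG with 9 bases of any kind between them), its short form ERSE-II (ATTGG and CCACG with 1 base between them) or the amino acid response element of ATF4 and C/EBP factors (CARE, TGATGNAA) close to their start. RefSeq promoters of build GRCm38.p6, from 250 bases before to 50 bases after the transcription start, were matched for 34 of the 38 genes, not for Atf6, Derl1, Hyou1 and Manf. On both strands, an ERSE was found in 8 of the 34 (23.5%) against 37 of the 27025 genes with a promoter in the table (0.137%), or 39 of its 32851 promoters (0.119%). An ERSE-II was found in 2 of 34 (5.88%), against 0.0444% of all genes, and a CARE in 6 of 34 (17.6%), against 4.51%. None held the core TGACGTGG of the XBP1 element UPRE, which 0.714% of all genes hold. No 2 of these motifs are the same letters, but an ERSE and an ERSE-II share the letters CCACG. The ERSE matches are shown because all but Syvn1 belong to folding genes, the role with the most calls below. Canx and Dnajc3 carry one and had no interaction call, and Sdf2l1, Pdia3, Pdia4, Dnajb9 and Dnajb11 had such a call and no ERSE match in this window. Each is given in the direction of its gene with 5 bases on either side and the match in capitals, and a match that begins with CGTGG lies on the other strand.
Hspa5 (chr2:34772020-34772048, + strand): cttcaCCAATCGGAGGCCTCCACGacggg
Hsp90b1 (chr10:86705633-86705661, - strand): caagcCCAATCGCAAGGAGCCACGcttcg
Hsp90b1 (chr10:86705528-86705556, - strand): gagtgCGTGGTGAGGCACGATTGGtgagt
Calr (chr8:84847070-84847098, - strand): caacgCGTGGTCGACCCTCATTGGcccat
Canx (chr11:50325795-50325823, - strand): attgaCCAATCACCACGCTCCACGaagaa
Pdia6 (chr12:17266486-17266514, + strand): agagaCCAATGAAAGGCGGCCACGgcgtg
Dnajc3 (chr14:118937822-118937850, + strand): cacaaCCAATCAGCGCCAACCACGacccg
Creld2 (chr15:88819515-88819543, + strand): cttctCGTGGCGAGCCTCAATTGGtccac
Syvn1 (chr19:6046527-6046555, + strand): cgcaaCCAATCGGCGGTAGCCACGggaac

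The CARE matches upstream of a start are shown in the same way, because under LPS Herpud1 was lower and Atf3, Asns, Aars and Trib3 were higher in 3xGrk-/- cells, while Chac1 was not tested. A match that begins with TT lies on the other strand. The matches of Trib3, of Dnajb11 (ERSE-II) and 1 of the 2 of Aars lie after the start and are not printed.
Herpud1 (chr8:94386312-94386329, + strand): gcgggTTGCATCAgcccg
Atf3 (chr1:191183431-191183448, - strand): cgcacTTGCATCAccaag
Chac1 (chr2:119351044-119351061, + strand): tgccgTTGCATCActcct
Asns (chr6:7693220-7693237, - strand): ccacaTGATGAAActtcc
Aars (chr8:111033725-111033742, + strand): gagcaTTGCATCAgccga
In GENCODE M21 the printed stretches of Hspa5, Asns and Aars lie in an exon of that gene annotated as UTR, upstream of the RefSeq start, and that of Atf3 lies within the Atf3 gene outside its exons. The Herpud1 stretches lie within Gm15890 outside its exons, and the others are outside annotated genes.

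The 250 bases before the start of Creld2 and of Herpud1 are given whole, since Creld2 had the largest genotype differences of the folding genes and Herpud1 was lower in 3xGrk-/- cells in both states. Creld2 holds 1 ERSE. Herpud1 holds a CARE followed by an ERSE-II.
Creld2 (chr15:88819396-88819645, + strand): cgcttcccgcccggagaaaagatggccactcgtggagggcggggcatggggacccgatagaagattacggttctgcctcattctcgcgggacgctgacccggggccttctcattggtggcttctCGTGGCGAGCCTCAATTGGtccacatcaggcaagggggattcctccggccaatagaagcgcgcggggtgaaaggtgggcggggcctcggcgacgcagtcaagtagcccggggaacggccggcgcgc
Herpud1 (chr8:94386179-94386428, + strand): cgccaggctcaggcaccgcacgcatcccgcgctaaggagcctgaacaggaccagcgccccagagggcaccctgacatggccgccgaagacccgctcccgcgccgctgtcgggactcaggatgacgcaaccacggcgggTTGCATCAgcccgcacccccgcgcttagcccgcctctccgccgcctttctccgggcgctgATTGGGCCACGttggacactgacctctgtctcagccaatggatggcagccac

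**Figure D1:**
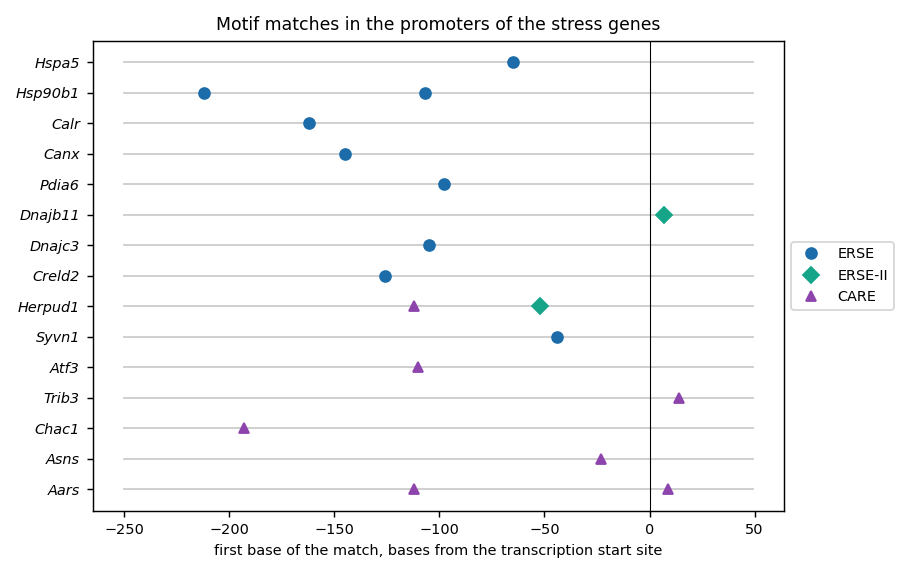
Position of each motif match in the promoters of the 15 genes that hold one. The x axis gives the first base of the match in bases from the RefSeq transcription start, grey lines span the window searched, circles are ERSE, diamonds ERSE-II and triangles CARE matches. ERSE matches lie before the start in all 8 genes, and Hsp90b1 has 2 of them.

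The libraries held 4713305 to 6933358 counts (median 6228400), and the 38 genes took 0.512% to 0.699% of them. Values per library are given as CPM, counts scaled by TMM to a common library size of 1000000 over all 8 libraries, and differences as log2 fold changes of 3xGrk-/- over WT or of LPS over no LPS, each as value ± SE. The 2 libraries of LPS-treated 3xGrk-/- cells differed more than those of the other groups, with a chi-square per gene of 9.02 against 1.59, 1.74 and 3.07 in WT, 3xGrk-/- and LPS-treated WT cells. A gene was called at an edgeR quasi-likelihood adjusted p under 0.05 over all genes tested. The methods of the study speak of technical triplicates for the RNA, and neither they nor the labels say that the 2 libraries of a group came from separate cultures, so the SEs and p-values measure only the spread between these libraries, which may be technical. The targeted Grk2, Grk3 and Grk6 were each called lower in 3xGrk-/- cells, by log2 fold changes of -1.11, -0.36 and -1.19 without LPS and -1.89, -0.42 and -1.54 with LPS. Reads of all 3 were still counted, and counts per gene do not show the deleted exons. Markers of cell types differed between the genotypes too. The 11 macrophage markers summed to 2346 to 2366 CPM in WT and 8577 to 8607 CPM in 3xGrk-/- libraries, and with LPS to 687 to 703 and 7332 to 7448 CPM. With LPS all 11 were called higher, and without LPS 6 were higher and 4 lower (Fcgr1, C1qa, C1qb and C1qc). Lyz2 alone gave 1303 and 1351 CPM of the sum in WT and 7055 and 7079 CPM in 3xGrk-/- libraries without LPS, and 281 and 291 against 4549.8 and 4606 CPM with LPS. The 11 dendritic cell markers summed to 25973 to 26210 against 13304 to 13588 CPM, and with LPS to 16569 to 18122 against 14221 to 14485 CPM. Of them 8 were lower and 3 higher (Flt3, Ccr7 and Itgax) without LPS, and 9 lower and 2 higher (Flt3 and Itgax) with LPS. Cd74 alone gave 11787 and 12059 CPM of the sum in WT and 6459 and 6302 CPM in 3xGrk-/- libraries without LPS. With LPS it gave 7352 and 8258 against 6525 and 6421 CPM. Next in WT cells without LPS were H2-Aa, H2-Eb1 and H2-Ab1, with means of 3967, 3525 and 3517 against 1662, 1283 and 1103 CPM. The 6 eosinophil markers summed to 1165 to 1220 against 61.9 to 68.1 CPM, and with LPS to 1070 to 1170 against 78.8 to 84.6 CPM. The 8 neutrophil markers summed to 697 to 741 against 514 to 531 CPM, and with LPS to 335 to 391 against 185 to 202 CPM. Of 7 B and plasma cell markers, the latter a secretory cell type rich in ER, 6 had at most 3 counts in any library and Sdc1 was higher in 3xGrk-/- cells (2.54 ± 0.14 and 3.73 ± 0.095). The part of these cell types in the results below was not tested, and in bulk RNA fewer cells of a type and less RNA per cell cannot be told apart.

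More of the 38 genes were lower than higher in 3xGrk-/- cells without LPS, and more were higher than lower with LPS. Without LPS, 18 genes were lower and 3 higher in 3xGrk-/- cells, a median log2 fold change of -0.13. Over all 12000 genes tested 44.7% were called, 22.7% lower and 22.1% higher, and the median was near 0. With LPS, 19 of the 37 tested genes were higher and 8 lower, a median of 0.21, against 48.6% of all 11830 genes called, 24.7% higher and 24.0% lower. The 2 WT and the 2 3xGrk-/- libraries did not overlap in 28 of 38 genes without and 32 of 37 genes with LPS, where 69.2% and 72.6% of all genes did not overlap. Chac1 was too low to be tested with LPS. A test of the difference between these genotype effects (the interaction, in a fit of all 8 libraries) called 21 of 38 genes more positive with LPS and 3 more negative, with 16.5% and 16.0% of all 12541 genes called in those directions. Of single genes, 9 were lower without and higher with LPS, 4 were lower in both, 3 were higher in both, 7 were higher and 4 lower with LPS alone, 5 were lower without LPS alone, 5 were called in neither and Chac1 was not called where it was tested. The share of all genes with each pattern was not counted. A call in 1 state alone is not a difference between states, and Canx, Ern1 and Eif2ak3 had no interaction call. Of the 9, DESeq2 did not call Hsp90b1, Dnajb11, Hyou1, Syvn1 and Asns without LPS. Without replicate 1 or 2 of the LPS-treated 3xGrk-/- libraries, 16 genes each were higher and 6 or 7 lower with LPS, and the interaction called 20 and 3 in each case. Scaled by library size alone, the split with LPS was 16 higher to 11 lower, with the higher calls of Hyou1 (adjusted p = 0.102), Edem1 (0.11) and Asns (0.0759) lost, as was that of Atf4 without LPS (0.128). Under a fixed coefficient of variation of 0.4, far above the 0.0306 and 0.0573 estimated from these libraries, no gene of the 38 was called without LPS and only Trib3 with LPS.

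**Figure D2:**
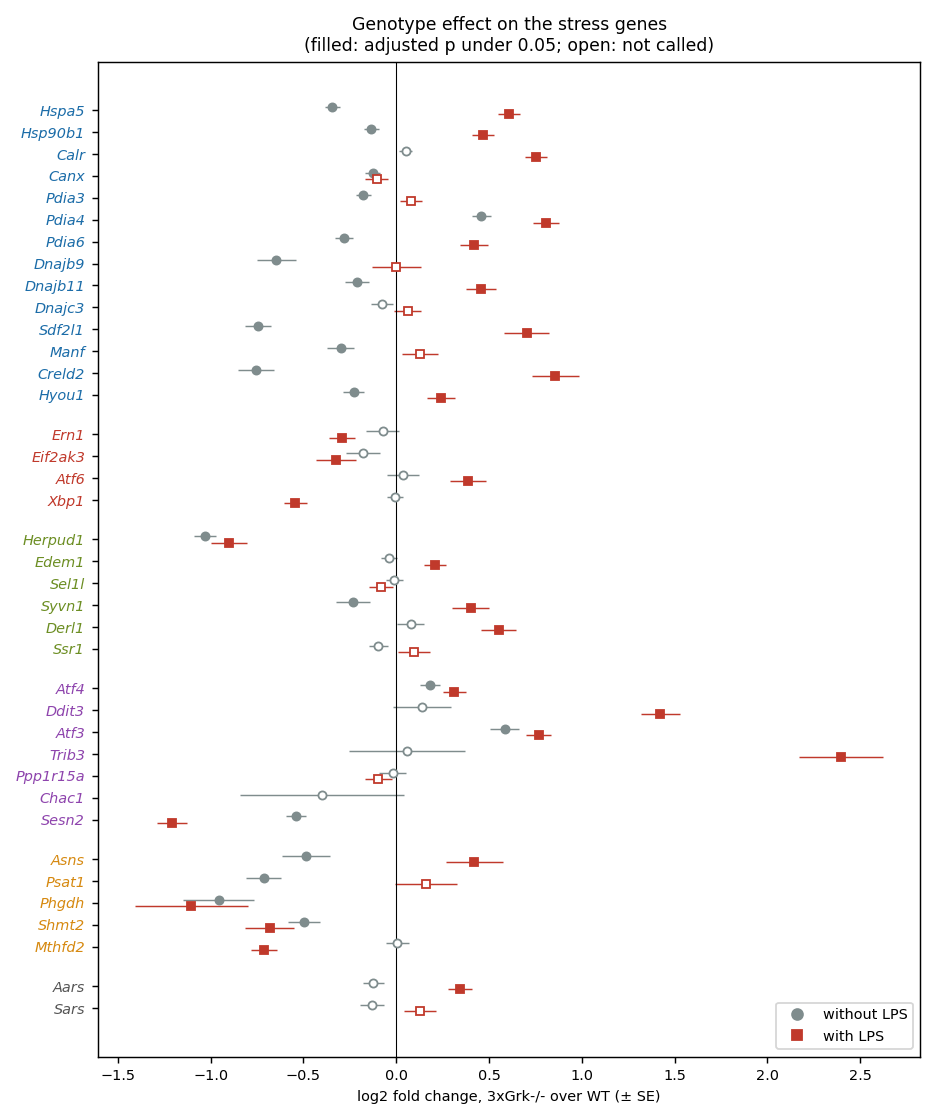
Genotype effect on each gene. The x axis is the log2 fold change of 3xGrk-/- over WT with its SE, grey circles are cells without and red squares cells with LPS, filled where the adjusted p was under 0.05, and genes are grouped by role (blue, ER chaperones and folding enzymes, red, sensors and Xbp1, green, ERAD and translocon, purple, ATF4 branch, orange, serine, one-carbon and asparagine synthesis, grey, tRNA synthetases). Most folding genes lie left of 0 without and right of 0 with LPS, while Herpud1, Sesn2, Phgdh and Shmt2 lie left of 0 in both.

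The ER chaperones and folding enzymes held 11 of the 18 lower calls without LPS and 9 of the 19 higher calls with LPS. Of these 14 genes, 11 were lower and only Pdia4 higher in unstimulated 3xGrk-/- cells (median -0.22), with Calr and Dnajc3 not called. After LPS 9 were higher and none lower (median 0.44), with Canx, Pdia3, Dnajb9, Dnajc3 and Manf not called. The interaction was called for 12 of 14 (median 0.63), all but Canx and Dnajc3. Their summed level was 3677 and 3716 CPM in the WT libraries and 3345 and 3384 CPM in 3xGrk-/-, and with LPS 2544 and 2592 CPM in WT and 3438 and 3463 CPM in 3xGrk-/-. The sum was thus lowest in LPS-treated WT cells, and the LPS-treated 3xGrk-/- libraries lay between the unstimulated ones of both genotypes. Macrophage marker sums were higher in 3xGrk-/- libraries in both states, in each mostly through Lyz2, and their part in the folding gene sums was not tested.

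Hspa5 (chr2:34771970-34777547, + strand, GRCm38) encodes BiP, the HSP70 of the ER lumen that also holds the sensors inactive. It read 504 and 508 CPM in WT and 396 and 402 CPM in 3xGrk-/- libraries, and with LPS 411 and 438 CPM in WT and 645 and 650.2 CPM in 3xGrk-/-. No groups overlapped within a stimulation, and the order of the genotypes turned over. The genotype effect on Hspa5 was -0.34 ± 0.040 (adjusted p = 9.99e-17) without and 0.61 ± 0.059 (adjusted p = 1.92e-08) with LPS, and these differed by 0.95 ± 0.070 (adjusted p = 1.03e-11). LPS changed BiP transcripts by -0.25 in WT and by 0.70 in 3xGrk-/- cells, both called. Of the folding genes, Hspa5 and Dnajb11 were the 2 with LPS calls in opposite directions in the genotypes, although the rise of Dnajb11 in 3xGrk-/- cells became -0.0046 when libraries were scaled by size alone.

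Hsp90b1 (GRP94, the HSP90 of the ER) read 486 and 495 CPM in WT and 452 and 443 CPM in 3xGrk-/- libraries, and with LPS 312 and 306 against 429.6 and 426 CPM. Its genotype effect went from -0.14 ± 0.040 (adjusted p = 0.00215) to 0.47 ± 0.059 (adjusted p = 1.06e-06). Calreticulin (Calr), a lectin chaperone that holds calcium and new glycoproteins, read 810.2 and 834 CPM in WT and 850.2 and 856 CPM in 3xGrk-/- libraries, then 469 and 515 in WT against 832 and 829 CPM with LPS. Both therefore lay clearly lower in LPS-treated WT cells than in the other groups. The Calr effect was 0.052 ± 0.035 (adjusted p = 0.232) without and 0.75 ± 0.059 (adjusted p = 8.47e-10) with LPS. Its membrane-bound partner calnexin (Canx) behaved otherwise, with effects of -0.13 ± 0.041 (adjusted p = 0.00603) and -0.11 ± 0.061 (adjusted p = 0.166) and an interaction of 0.022 ± 0.074 (adjusted p = 0.859). Exons of Hsp90b1 share 632 bases with other annotated genes, so some of its reads are uncertain.

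Creld2, a secreted disulfide isomerase and marker of ER stress, had the largest effects of the folding genes in both genotype comparisons. It read 54.1 and 52.6 CPM in WT and 33.3 and 29.6 CPM in 3xGrk-/- libraries, and with LPS 17.9 and 17.9 against 32.1 and 32.9 CPM. The effects were -0.75 ± 0.098 (adjusted p = 1.19e-13) and 0.86 ± 0.13 (adjusted p = 9.98e-06), and their difference of 1.61 ± 0.16 (adjusted p = 2.89e-09) was a 3.06-fold one. LPS lowered Creld2 in WT cells (-1.57 ± 0.11, adjusted p = 7.95e-13), whereas in 3xGrk-/- cells its LPS difference was 0.042 ± 0.11 (adjusted p = 0.766). Sdf2l1, a cofactor of BiP, is shown per library because of its values and not by the rule for the other genes. It read 117 and 114 CPM in WT and 65.8 and 72.1 CPM in 3xGrk-/-, then 20.6 and 24.4 in WT against 36.8 and 36.9 CPM with LPS. It fell with LPS in both genotypes, 5.09-fold in WT and 1.87-fold in 3xGrk-/- cells.

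Pdia4 (ERp72), a disulfide isomerase, was the exception without LPS. It read 135 and 139 CPM in WT and 188 and 190.5 CPM in 3xGrk-/- libraries, and 113 and 115 in WT against 197 and 203 CPM with LPS. It was thus higher in 3xGrk-/- cells in both states, by 0.46 ± 0.053 (adjusted p = 4.36e-17) and 0.81 ± 0.069 (adjusted p = 3.4e-09), and the effect was larger with LPS (interaction 0.35 ± 0.083, adjusted p = 0.0017). Its relatives Pdia6 (effects -0.28 ± 0.049 and 0.42 ± 0.074) and Pdia3 (-0.18 ± 0.041 and 0.081 ± 0.059) were lower without LPS, and with LPS Pdia6 was higher and Pdia3 not called. The BiP cochaperones Dnajb11 (-0.21 ± 0.066 and 0.46 ± 0.082) and Hyou1, its nucleotide exchange factor (-0.23 ± 0.056 and 0.24 ± 0.074), followed Hspa5. Dnajb9 (-0.65 ± 0.11) and the secreted factor Manf (-0.30 ± 0.074) were lower without LPS, and were not called with it (-0.00050 and 0.13). Dnajc3 (p58IPK) was called in neither state. Some of the smaller calls rested on 1 library. Leaving out 3xGrk-/- replicate 1 without LPS ended the calls of Canx (adjusted p = 0.166) and Dnajb11 (0.0945), and leaving out WT replicate 2 that of Hyou1 (0.0545). With LPS, the Hyou1 call ended without either 3xGrk-/- library (0.0888 and 0.127), whereas without WT replicate 2 Manf was called higher (0.0184) and Canx lower (0.0359). DESeq2 did not call the differences of Hsp90b1 (adjusted p = 0.0554), Canx (0.111), Dnajb11 (0.149) and Hyou1 (0.0549) without LPS, nor that of Hyou1 with LPS (0.079), and its chaperone counts were 7 lower and 1 higher without and 8 higher and none lower with LPS.

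**Figure D3:**
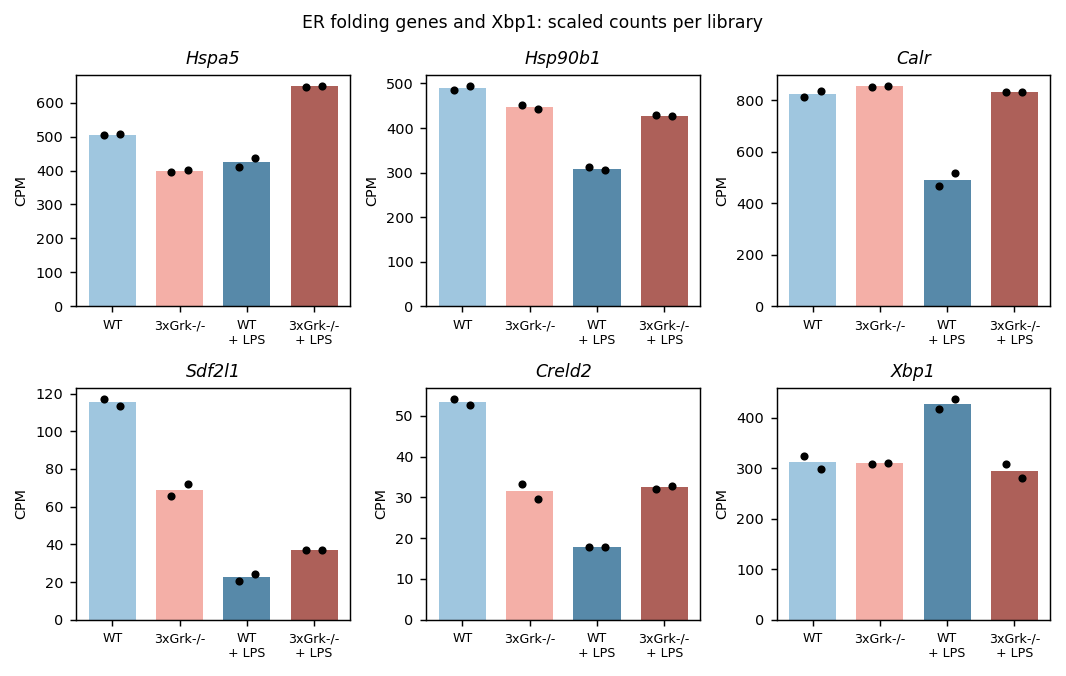
CPM of 6 genes in every library. Bars are the means of 2 libraries, points the libraries, on linear axes that start at 0. Hspa5 is lower in 3xGrk-/- than WT cells without LPS and higher with LPS, whereas Xbp1 overlaps between genotypes without LPS and is lower in 3xGrk-/- cells with LPS.

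None of the 3 sensors and Xbp1 was called between genotypes without LPS. With LPS Atf6 was higher, and Ern1, Eif2ak3 and Xbp1 were lower in 3xGrk-/- cells. Xbp1 read 324 and 299 CPM in WT and 309 and 309.7 CPM in 3xGrk-/- libraries, which overlapped, and with LPS 418 and 438 against 308 and 280.0 CPM, which did not. Its effect went from -0.0072 ± 0.044 (adjusted p = 0.912) to -0.54 ± 0.063 (adjusted p = 3.09e-07), a difference of -0.54 ± 0.080 (adjusted p = 4.99e-06). Xbp1 was thus lower with LPS in the cells in which most folding genes were higher. LPS raised Xbp1 in WT cells (0.46 ± 0.056, adjusted p = 5.44e-08), and in 3xGrk-/- cells the LPS difference was -0.076 ± 0.057 (adjusted p = 0.269). Counts per gene do not separate spliced from unspliced Xbp1 mRNA, so IRE1 activity was not measured.

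Ern1 itself read 55.5 and 46 CPM in WT and 47.5 and 47.8 CPM in 3xGrk-/- libraries, and 167 and 161 in WT against 134 and 134 CPM with LPS. It rose 3.26-fold with LPS in WT and 2.82-fold in 3xGrk-/- cells, the largest LPS increase among the 38 genes in WT. The genotype effect was -0.074 ± 0.090 (adjusted p = 0.542) without and -0.29 ± 0.070 (adjusted p = 0.00162) with LPS. Eif2ak3 was low throughout, at 53.7 and 47.4 CPM in WT, 45.7 and 42.6 CPM in 3xGrk-/-, 40.9 and 44.9 CPM in LPS-treated WT and 32.5 and 36.1 CPM in LPS-treated 3xGrk-/- libraries. Its effects were -0.18 ± 0.091 (adjusted p = 0.0944) and -0.32 ± 0.11 (adjusted p = 0.0186), and 485 of its exon bases overlap an opposite-strand gene. Atf6 read 54.1 and 51 CPM, 52.7 and 54.8 CPM, 50.7 and 46.9 CPM and 63.2 and 64.4 CPM in the same order of groups, so that the LPS-treated 3xGrk-/- libraries lay above all others and the LPS-treated WT libraries just below the unstimulated ones. The Atf6 effect with LPS was 0.39 ± 0.097 (adjusted p = 0.00231), with an interaction of 0.36 ± 0.12 (adjusted p = 0.0287). Several of these calls ended without 1 library. The Ern1 call with LPS ended without 3xGrk-/- replicate 1 or 2 (adjusted p = 0.0541 and 0.0698), and that of Eif2ak3 without 3xGrk-/- replicate 1 or WT replicate 2 (0.213 and 0.115) and with DESeq2 (0.175). The Atf6 interaction ended without any of 6 of the 8 libraries (0.0525 to 0.107) and with DESeq2 (0.183), and without WT replicate 2 Eif2ak3 was also called lower without LPS (0.0402).

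Among the 6 ERAD and translocon genes, Herpud1 differed most. HERP, its product, sits in the ER membrane and brings the degradation complex together. It read 185 and 188 CPM in WT and 90.8 and 92.4 CPM in 3xGrk-/- libraries, and 68.6 and 70.6 in WT against 38.1 and 36.6 CPM with LPS. 3xGrk-/- cells thus held less Herpud1 in each state, 2.04-fold lower without and 1.87-fold lower with LPS. The log2 effects were -1.03 ± 0.058 (adjusted p = 1.81e-69) and -0.90 ± 0.098 (adjusted p = 1.28e-07), and their difference was 0.13 ± 0.11 (adjusted p = 0.398). The Herpud1 promoter holds both an ERSE-II and a CARE, printed above. In LPS-treated 3xGrk-/- cells Herpud1 was lower, while Dnajb11 (the other gene with an ERSE-II), Hspa5 and Creld2 (with an ERSE) and Atf3 and Aars (with a CARE) were higher. The part of these motifs was not tested.

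The ubiquitin ligase Syvn1 (HRD1) read 46.9 and 55.6 CPM in WT and 44 and 44.2 CPM in 3xGrk-/- libraries, and 42.9 and 46.8 in WT against 57.9 and 60.7 CPM with LPS, with effects of -0.23 ± 0.091 (adjusted p = 0.0247) and 0.40 ± 0.099 (adjusted p = 0.00207). Derl1, a membrane channel protein of the same complex, read 75.5 and 76.2 CPM and 78.1 and 82.5 CPM, then 67 and 57.4 in WT against 86.4 and 95.5 CPM. It was higher in 3xGrk-/- cells with LPS only (0.55 ± 0.095, adjusted p = 5.61e-05), against 0.078 without LPS, and the effects differed by 0.48 ± 0.12 (adjusted p = 0.0018). The mannosidase-like Edem1 was also higher with LPS (0.21 ± 0.058, adjusted p = 0.00505). Sel1l, the scaffold of HRD1, and the translocon subunit Ssr1 were called in neither state, with effects of -0.010 and -0.082 and of -0.098 and 0.095. The Syvn1 call without LPS was lost when any of 3 of the 4 libraries was left out, to adjusted p-values of 0.0856, 0.114 and, without WT replicate 2, 0.608, and with DESeq2 (0.338). The Edem1 call with LPS was lost without either 3xGrk-/- library (0.0658 and 0.125), whereas Ssr1 was called higher without WT replicate 1 (0.0016).

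The 7 regulators of the ATF4 branch split. Atf4 and Atf3 were higher in 3xGrk-/- cells in both states, Ddit3 and Trib3 with LPS, Sesn2 was lower in both, and Ppp1r15a was called in neither. Atf4 read 142 and 142 CPM in WT and 162 and 160.5 CPM in 3xGrk-/- libraries, and 196 and 197 in WT against 247 and 241 CPM with LPS, the highest values being those of LPS-treated 3xGrk-/- cells. Its effects of 0.18 ± 0.054 (adjusted p = 0.00222) and 0.31 ± 0.063 (adjusted p = 0.000283) were small, the first was not called by DESeq2 (0.0971), and ATF4 is controlled mainly by translation, which was not measured here. Atf3, a stress-induced repressor, had effects of 0.58 ± 0.077 (adjusted p = 3.17e-13) and 0.77 ± 0.068 (adjusted p = 5.76e-09), from 56.8 and 55.9 CPM in WT and 81.8 and 87.5 CPM in 3xGrk-/- libraries and 117 and 120.0 in WT against 202 and 202 CPM with LPS.

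Ddit3 encodes CHOP, a factor of prolonged stress. It read 12.8 and 15.8 CPM in WT and 16.9 and 14.9 CPM in 3xGrk-/- libraries, which overlapped, and 24.3 and 25.5 against 66.4 and 67.2 CPM with LPS. The effect was 0.14 ± 0.16 (adjusted p = 0.509) without and 1.42 ± 0.10 (adjusted p = 2.85e-10) with LPS, and the difference was 1.28 ± 0.18 (adjusted p = 2.55e-06). Trib3, a pseudokinase that binds ATF4 and CHOP, was counted 17 and 25 times in WT, 22 and 22 times in 3xGrk-/-, 19 and 19 times in LPS-treated WT and 95 and 101 times in LPS-treated 3xGrk-/- libraries. In the same order those are 3.24 and 3.5 CPM, 3.28 and 3.81 CPM, 3.44 and 2.93 CPM and 17.2 and 16.3 CPM. LPS-treated 3xGrk-/- cells alone stood apart, 5.26-fold above LPS-treated WT cells (2.40 ± 0.23, adjusted p = 1.4e-08), against 0.058 ± 0.31 (adjusted p = 0.899) without LPS. At 2.34 ± 0.38, Trib3 had the largest interaction of the 38 genes, with an adjusted p of 1.55e-05. Exons of Ddit3 share 186 bases with other annotated entries, so part of its count is uncertain.

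Sesn2, a leucine sensor and brake on mTORC1, went the other way. It read 185 and 187 CPM in WT and 123 and 133 CPM in 3xGrk-/- libraries, and 152 and 163 in WT against 73.3 and 63.1 CPM with LPS. The effects were -0.54 ± 0.054 (adjusted p = 1.84e-22) and -1.21 ± 0.083 (adjusted p = 9.05e-11), and the drop was larger with LPS (interaction -0.67 ± 0.10, adjusted p = 4.75e-06). Ppp1r15a (GADD34), which reverses the translation block, differed by -0.020 and -0.097 between genotypes and rose with LPS in both, by 0.87 in WT and 0.79 in 3xGrk-/- cells. Chac1, a glutathione-degrading enzyme and target of ATF4, had 4 to 13 counts in any library and was called in none of the 4 comparisons that tested it. The branch thus held, in LPS-treated 3xGrk-/- cells, the highest Ddit3 and Trib3 and the lowest Sesn2 levels of the 4 groups.

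**Figure D4:**
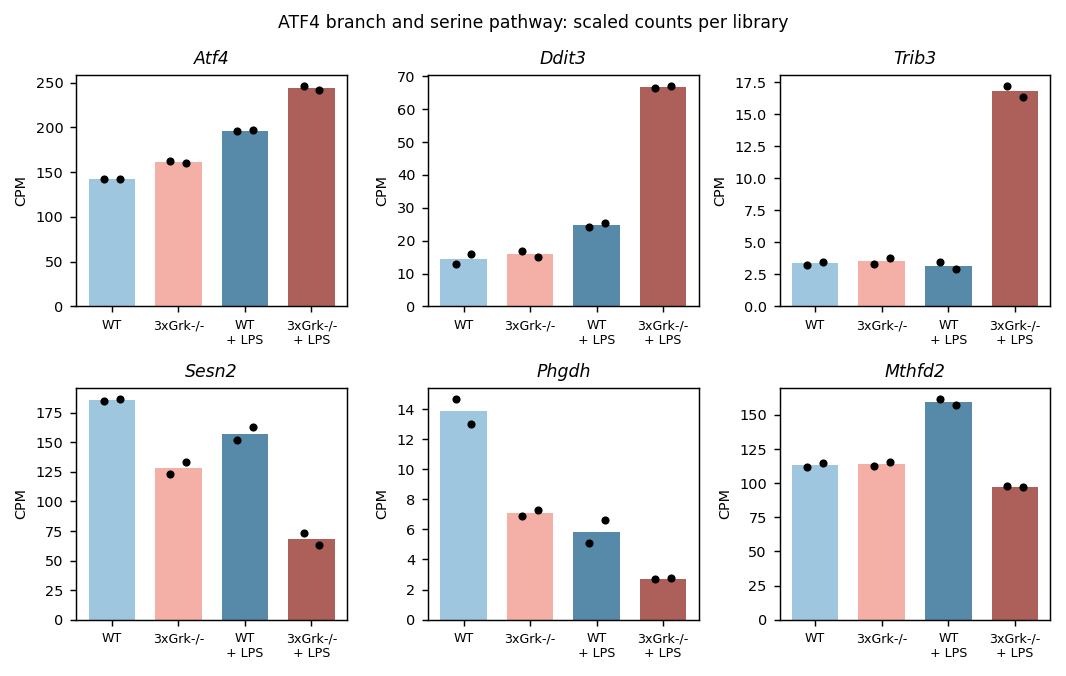
CPM of 6 genes of the ATF4 branch and of amino acid synthesis in every library, drawn as above with bars for means of 2 libraries and points for libraries on axes from 0. Ddit3 and Trib3 are high in LPS-treated 3xGrk-/- cells only, whereas Sesn2 is lowest there.

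The enzymes of serine, one-carbon and asparagine synthesis, which ATF4 is known to drive, were mostly lower in 3xGrk-/- cells. Of the 5, 4 were lower without LPS (median -0.50), and with LPS 3 were lower and Asns higher (median -0.68). Of all genes, 22.7% were lower without LPS, and 24.0% were lower and 24.7% higher with it. With DESeq2, 3 of the 5 were lower without LPS, and 2 lower and none higher with it. Their sum was 269 and 275 CPM in WT and 215 and 223 CPM in 3xGrk-/- libraries, and 222 and 227 against 156 and 153 CPM with LPS. Sums were therefore lowest in the LPS-treated 3xGrk-/- cells. With LPS the difference lay mostly in Mthfd2, with means of 160 CPM in WT and 97.4 CPM in 3xGrk-/- libraries. Asns (14.8 against 19.8 CPM) and Psat1 (13.3 against 14.9 CPM) were not lower in LPS-treated 3xGrk-/- than in LPS-treated WT cells.

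Phgdh, the first enzyme of serine synthesis, was counted 77 and 93 times in WT, 46 and 42 times in 3xGrk-/-, 28 and 43 times in LPS-treated WT and 15 and 17 times in LPS-treated 3xGrk-/- libraries, or in that order 14.7 and 13 CPM, 6.87 and 7.28 CPM, 5.07 and 6.64 CPM and 2.72 and 2.75 CPM. It was 1.94-fold and 2.15-fold lower in 3xGrk-/- cells without and with LPS, with effects of -0.96 ± 0.19 (adjusted p = 2.31e-06) and -1.10 ± 0.30 (adjusted p = 0.00449). Psat1, the next enzyme, read 54.3 and 57.3 CPM in WT and 32.7 and 35.9 CPM in 3xGrk-/- libraries, and 12.3 and 14.2 in WT against 15.2 and 14.6 CPM with LPS. It was lower in 3xGrk-/- cells without LPS (-0.71 ± 0.095, adjusted p = 4.29e-13) and not called with it (0.16), where both genotypes were low. Shmt2, which passes serine carbon into the mitochondrial folate cycle, was lower in both states (-0.50 ± 0.087 and -0.68 ± 0.13). Mthfd2, the next enzyme of that cycle, read 112 and 114 CPM in WT and 112 and 116 CPM in 3xGrk-/- libraries, and 162 and 157 against 97.8 and 96.9 CPM with LPS. Its effect was thus 0.0067 ± 0.061 (adjusted p = 0.94) without and -0.71 ± 0.072 (adjusted p = 4.53e-08) with LPS, an interaction of -0.72 ± 0.091 (adjusted p = 3.33e-07). Asparagine synthetase (Asns) read 26.9 and 27.8 CPM in WT, 20.01 and 19.1 CPM in 3xGrk-/-, 13.8 and 15.8 CPM in LPS-treated WT and 19.8 and 19.9 CPM in LPS-treated 3xGrk-/- libraries. It was lower in 3xGrk-/- cells without LPS (-0.49 ± 0.13, adjusted p = 0.000554) and higher with LPS (0.42 ± 0.15, adjusted p = 0.0271), and the effects differed by 0.91 ± 0.19 (adjusted p = 0.000332). The call of Asns with LPS was weak, since it ended without WT replicate 1 (adjusted p = 0.0992) and without 3xGrk-/- replicate 1 or 2 (0.0751 and 0.091), as did that of Phgdh without WT replicate 2 (0.0809). DESeq2 did not call Asns without (0.0706) or with LPS (0.206), nor Phgdh with LPS (0.0924).

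Of the 2 tRNA synthetases in the list, alanyl-tRNA synthetase (Aars) read 144 and 129.6 CPM in WT and 125 and 125 CPM in 3xGrk-/- libraries, and 164 and 169 in WT against 215 and 209 CPM with LPS. It was called higher in 3xGrk-/- cells with LPS (0.34 ± 0.065, adjusted p = 0.000156), against -0.12 ± 0.058 (adjusted p = 0.0686) without, and the effects differed by 0.47 ± 0.087 (adjusted p = 9.66e-05). Its exons share 1403 bases with other genes, most of them with Exosc6 on the same strand, so its count is uncertain. Seryl-tRNA synthetase (Sars) read 106 and 93.5 CPM and 90.04 and 91.2 CPM, then 70.8 and 77.1 in WT against 79.9 and 81.9 CPM, and was called in neither state (-0.13 and 0.13). Both were called lower in unstimulated 3xGrk-/- cells once WT replicate 2 was left out (adjusted p = 0.0145 and 0.0173).

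The counts of genes that LPS raised and lowered were not the same in the 2 genotypes. Whether the unstimulated and stimulated libraries were sequenced together is not stated, so stimulation and count table cannot be told apart. In WT cells 22 of the 38 genes fell and 9 rose (median -0.27), where 60.3% of all 12541 genes were called, 30.8% lower and 29.5% higher. In 3xGrk-/- cells 14 rose and 13 fell (median -0.0091), against 55.4% of all genes called, 28.0% higher and 27.4% lower. Libraries with and without LPS did not overlap in 35 of 38 genes in WT (78.3% of all genes) and in 35 of 38 in 3xGrk-/- cells (77.6%). All 12 folding genes called in WT cells fell, the largest change being that of Sdf2l1 (-2.35), followed by Creld2 (-1.57), Pdia6 (-1.13), Calr (-0.74) and Hsp90b1 (-0.67). In 3xGrk-/- cells 4 folding genes rose (Hspa5, Dnajb9, Dnajb11 and Dnajc3) and 4 fell (Sdf2l1, Pdia6, Canx and Pdia3). Scaled by library size alone, which put the median of all genes at -0.23 in either genotype, 9 of the 38 rose and 19 fell in 3xGrk-/- cells, and of the folding genes 1 rose and 8 fell. Of the 3xGrk-/- increases, those of Dnajb11 and Dnajc3 ended without 3xGrk-/- replicate 1 of the unstimulated (adjusted p = 0.11 and 0.168) or replicate 2 of the LPS-treated libraries (0.143 and 0.0932), and the Pdia3 decrease ended without any of 6 libraries (0.0645 to 0.208). DESeq2 called none of these 3 (0.0803, 0.0523 and 0.0993). In WT cells the Manf decrease ended without LPS-treated replicate 1 (0.0537), and Dnajb9 was called lower there (0.00228).

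Outside the folding genes, Ern1, Edem1, Atf4, Ddit3, Atf3, Ppp1r15a and Aars rose in both, and 7 genes fell in both. Scaled by library size alone, the rise of Aars in WT was not called (0.0735, adjusted p = 0.327), nor were those of Atf6 (0.030, adjusted p = 0.783) and Syvn1 (0.21, adjusted p = 0.0628) in 3xGrk-/- cells. The 7 that fell were Sel1l, Ssr1 and Sesn2 with Herpud1 (-1.42 in WT and -1.29 in 3xGrk-/-), Psat1 (-2.07 and -1.20), Shmt2 (-0.98 and -1.17) and Phgdh (-1.21 and -1.36). Mthfd2 was the only gene that rose in WT (0.49) and fell in 3xGrk-/- cells (-0.23), although that fall was not called without LPS-treated 3xGrk-/- replicate 2 (adjusted p = 0.0502). Smaller calls also ended without 1 library, in WT those of Derl1 (0.105 without LPS-treated replicate 2) and Sel1l (0.0525 to 0.215 without any of 6 libraries), and in 3xGrk-/- cells those of Atf6, Eif2ak3 and Sel1l (up to 0.112, 0.0652 and 0.0962). Per kilobase of exon, the level of Calr was the highest of the 38 genes in every group, at 285, 296, 171 and 288 CPM per kb in WT, 3xGrk-/-, LPS-treated WT and LPS-treated 3xGrk-/- cells. Hspa5 was second in LPS-treated 3xGrk-/- cells (153 CPM per kb), and Xbp1 in LPS-treated WT cells (132 CPM per kb).

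**Figure D5:**
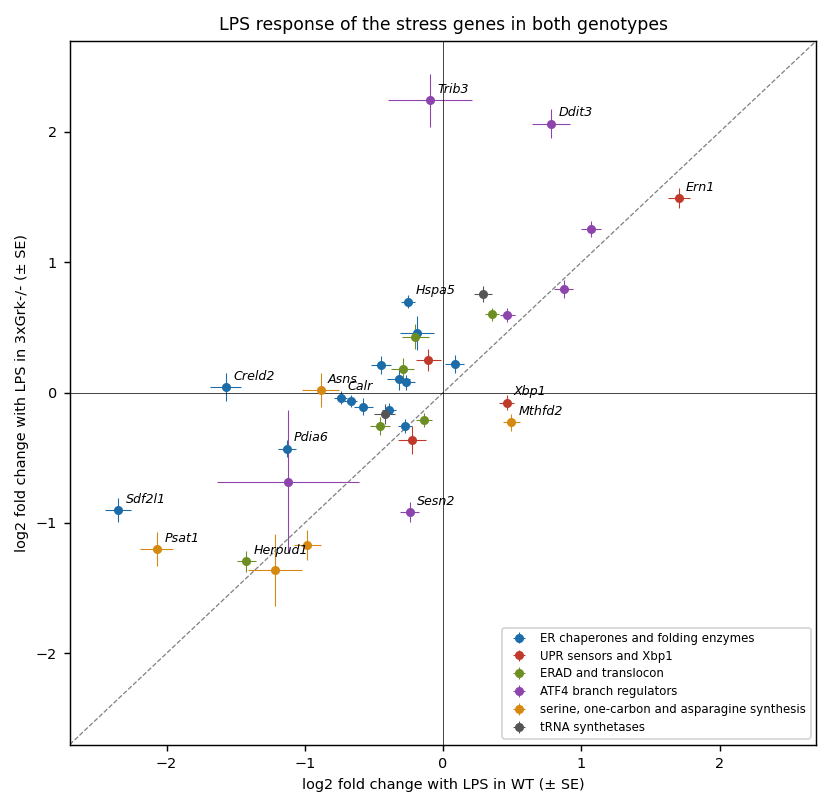
LPS response of the 38 genes in both genotypes. Each point is a gene, with the log2 fold change of LPS over no LPS in WT on the x axis and in 3xGrk-/- cells on the y axis, both with SE, coloured by role, and the dashed line marks equal responses. Most folding genes lie above the line and left of 0, Ddit3 and Trib3 lie far above it, and Xbp1, Mthfd2 and Sesn2 lie below it.

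The 8 genes with an ERSE were described as a group. Without LPS 6 were lower in 3xGrk-/- cells and none higher (median -0.18), and with LPS 6 were higher and none lower (median 0.44), where 22.7% of all genes were lower without and 24.7% higher with LPS. In the 26 genes with a promoter but no ERSE the counts were 10 lower and 3 higher without LPS (median -0.13), and 8 lower and 10 higher of 25 tested with LPS (median 0.095). The 6 CARE genes gave 2 lower and 1 higher without LPS, and 1 lower (Herpud1) and 4 higher of 5 tested with LPS. These counts are a description, since most ERSE genes are folding genes by the list itself.

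Other genes of the same pathways, from lists of 129 genes, were lower in 32 of 115 tested and higher in 19 without LPS (44.3% called, where all genes gave 44.7%). With LPS 42 of 114 were higher and 27 lower (60.5% called, where all genes gave 48.6%). Among other ER folding and glycosylation genes 10 of 19 were higher and 4 lower with LPS. The oxidase of disulfide bonds Ero1l (0.99 ± 0.092) and the disulfide isomerase P4hb (0.94 ± 0.060) were the highest, and Pdia5 (-1.66 ± 0.14) and the ER reductase Dnajc10 (-1.05 ± 0.066) the lowest. Without LPS 3 of 20 were higher and 5 lower, with Fkbp11 (2.53 ± 0.54) and the glucosidase subunit Ganab (0.18 ± 0.053) at the upper and Pdia5 (-1.38 ± 0.20) and the transferase subunit Ostc (-0.23 ± 0.094) at the lower end. Other ERAD genes were higher in 6 of 10 and lower in none with LPS, led by Edem3 (0.68 ± 0.14), with Edem2 (0.23 ± 0.086) and Derl2 (0.28 ± 0.097) least so. Without LPS, Edem2 was higher (0.52 ± 0.087), and Derl3 (-2.89 ± 0.61) and Selenos (-0.35 ± 0.091) were lower. Fkbp11 and Derl3 were low, with at most 22 and 20 counts in any library. Genes of translocation into and exit from the ER gave 11 higher and 2 lower of 21 with LPS and 1 higher and 7 lower without. The COPII coat gene Sec24d (1.38 ± 0.14) and Tram1 (0.74 ± 0.11) were the highest with LPS, Sec61b was lower in both states (-0.67 ± 0.053 and -0.41 ± 0.084), as was Sec31a in the LPS state (-0.26 ± 0.073), and Sec11a (-0.38 ± 0.077) was lower and Sec11c (0.28 ± 0.058) higher without LPS. Without LPS 40%, 27.3% and 38.1% of these 3 lists were called, in the order given, against 44.7% of all genes.

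Of 16 other sensors and transcription factors 6 were higher and none lower without LPS, and 5 higher and 2 lower with LPS, so that 37.5% and 43.8% were called against 44.7% and 48.6% of all genes. Cebpb, a C/EBP factor that can pair with ATF4, was the highest in both (2.47 ± 0.096 and 3.08 ± 0.14), with Creb3l4 without LPS (1.23 ± 0.46) and Creb3l1 with it (1.25 ± 0.30), while Eif2s1 (-0.60 ± 0.081), the translation factor that PERK phosphorylates, and the protease gene Mbtps1 (-0.52 ± 0.072) were lower with LPS. Without LPS the smallest increases were those of Mbtps1 (0.22 ± 0.060) and Ppp1r15b (0.23 ± 0.059). Other ATF4 targets split, with 4 higher and 9 lower of 17 without and 6 higher and 8 lower with LPS (76.5% and 82.4% called). The cystine transporter Slc7a11 was higher in both states (1.28 ± 0.044 and 1.42 ± 0.091), together with its partner Slc3a2 without LPS (0.60 ± 0.047) and Nupr1 (2.12 ± 0.13) and Ddit4 (1.52 ± 0.12) with LPS. The neutral amino acid carrier Slc1a4 was lower in both (-1.60 ± 0.10 and -3.11 ± 0.15), Pck2 without LPS (-0.60 ± 0.15), and the cationic amino acid carrier Slc7a3 with LPS (-4.28 ± 0.33). Targets of ATF4 thus lay at both ends of the range.

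Of 18 other cytosolic tRNA synthetases 8 were lower and 2 higher without LPS, and 5 lower and none higher with LPS, so that 55.6% and 27.8% were called against 44.7% and 48.6% of all genes. Vars was the lowest in both states (-0.56 ± 0.069 and -0.63 ± 0.12), Yars followed without LPS (-0.45 ± 0.096) and Wars with it (-0.45 ± 0.087), and Farsa (0.23 ± 0.090) and Wars (0.23 ± 0.067) were the 2 higher ones. Heat shock genes of the cytosol and mitochondria, which answer to HSF1, gave 2 higher and 1 lower of 12 without and 4 higher and 6 lower of 13 with LPS (25% and 76.9% called). Hspa1a (1.88 ± 0.52) and Hspa1b (1.0 ± 0.36), near-identical copies between which reads cannot be assigned with certainty, were the highest with LPS, and the mitochondrial co-chaperonin Hspe1 (-1.04 ± 0.070) and the constitutive Hspa8 (-0.68 ± 0.055) the lowest. Without LPS Hsph1 (0.48 ± 0.090) and Hsp90ab1 (0.14 ± 0.029) were higher and Hspa8 (-0.22 ± 0.032) was lower.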

How the data were processed

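The RNA was made into stranded poly(A) libraries and, per the methods of the study, aligned with STAR in the snakePipes workflow to the mouse genome (GRCm38) and counted per gene with featureCounts. The annotation release and strand setting are not given in the sources used here. The deposited values are whole-number counts per gene, in 1 table for unstimulated and 1 for LPS-treated cells, with 4 libraries each. Gene IDs were named with GENCODE M21 (47310 of 47937 matched, and 0.0468% of counts were on the others).

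Genotypes were compared within each table, and the LPS responses and the interaction in 1 fit of all 8 libraries, with edgeR 4.0.16 in R 4.3.3 (filterByExpr, TMM scaling, quasi-likelihood test, Benjamini-Hochberg adjustment over all genes tested). No table column was without a sample. DESeq2 1.42.0, other scalings, filters, a fixed spread, a replicate block and leaving out each library were the alternatives. Promoter sequences came from RefSeq (GRCm38.p6). The members, gene lists and tests were chosen with earlier results of these data known. Of the members, 9 set by their role and, in each role, the 3 with the largest genotype effects and the 1 with the largest interaction are given per library, and of each pathway list the 2 highest and 2 lowest called genes are named. Of the pathway genes so chosen, 1 is not reported here.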

Additional observations from a re-analysis of the deposited data

Results flagged for a closer look

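The genotype effect with LPS differed from that without LPS in 24 of the 38 genes, by the interaction term of the edgeR quasi-likelihood fit of all 8 libraries, with an adjusted p under 0.05 over 12541 genes, of which 32.5% were called. The differences, as log2 fold change of 3xGrk-/- over WT with LPS minus that without, were positive in 21. Among the folding genes they were 1.61 for Creld2, 1.45 for Sdf2l1, 0.95 for Hspa5, 0.70 for Calr, 0.70 for Pdia6, 0.67 for Dnajb11, 0.65 for Dnajb9, 0.60 for Hsp90b1, 0.47 for Hyou1, 0.43 for Manf, 0.35 for Pdia4 and 0.26 for Pdia3. Of these, Creld2, Sdf2l1, Hspa5, Pdia6, Dnajb11, Hsp90b1 and Hyou1 were called lower without and higher with LPS, as were Syvn1 and Asns. DESeq2 did not call the genotype differences of Dnajb11, Hsp90b1, Hyou1, Syvn1 and Asns without LPS. For Manf the adjusted p of the difference was 0.0584 with DESeq2.

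In the other roles the difference was 2.34 for Trib3, 1.28 for Ddit3, 0.91 for Asns, 0.87 for Psat1, 0.63 for Syvn1, 0.48 for Derl1, 0.47 for Aars, 0.36 for Atf6 and 0.25 for Edem1. It was negative for Mthfd2 (-0.72), Sesn2 (-0.67) and Xbp1 (-0.54). The difference for Atf6 was lost with DESeq2 (adjusted p = 0.183) and without any of 6 libraries. The summed macrophage markers were 2346 to 2366 CPM in WT, 8577 to 8607 CPM in 3xGrk-/-, 687 to 703 CPM in LPS-treated WT and 7332 to 7448 CPM in LPS-treated 3xGrk-/- libraries, of which Lyz2 was 1303 and 1351, 7055 and 7079, 281 and 291, and 4549.8 and 4606 CPM, and their part in these differences was not tested.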

How the results depend on the processing

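Over the 5 comparisons 130 calls of the 38 genes were made. With DESeq2 112 of them passed, with RLE size factors, a minimum of 10 counts or without the abundant Gm42418 all 130, without the filter 129, with library size alone 120, and in a fit of all 8 libraries 46 of the 48 genotype calls. Under a fixed coefficient of variation of 0.4 only 5 passed: higher and lower calls were then 0 and 0 for the genotypes without LPS (448 of all genes), 1 and 0 with LPS (782), 0 and 2 for LPS in WT (1110), 2 and 0 for LPS in 3xGrk-/- cells (850), and 0 and 0 for the interaction (72). DESeq2 called 3086 of all genes for genotype without LPS and 2643 for the interaction, and library size alone called 9 members higher with LPS in 3xGrk-/- cells; the cause was not tested. Chac1, Trib3 and Phgdh had low counts, at 4 to 13, 17 to 101 and 15 to 93 in a library. With 2 libraries a group an exact permutation test could reach no p below 0.333.

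Signs turned for the following differences, of which 1 had been called (Dnajb11 with LPS in 3xGrk-/- cells). With library size alone they became, for genotype without LPS, -0.033 for Calr, -0.050 for Atf6, -0.0062 for Derl1, -0.026 for Trib3 and -0.078 for Mthfd2; for genotype with LPS, -0.0065 for Pdia3 and -0.026 for Dnajc3; for LPS in WT, -0.13 for Dnajc3; and for LPS in 3xGrk-/- cells, -0.14 for Pdia4 (then called, adjusted p = 0.0375), -0.0046 for Dnajb11, -0.11 for Manf, -0.18 for Creld2, -0.035 for Derl1 and -0.20 for Asns. Without LPS they became 0.014 for Xbp1, 0.011 for Sel1l and 0.0011 for Ppp1r15a with no filter, and -0.004 for Mthfd2 with a minimum of 10 counts. Dnajb9 with LPS became 0.0007 with DESeq2, 0.007 with RLE factors, 0.025 with no filter, 0.0079 with a minimum of 10 counts and 0.0013 in the fit of all libraries.

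Leaving out 1 library leaves a group with a single library, which is assumed to vary like the others. Over these fits the genotype effects without LPS ran from -0.016 to 0.073 for Atf6, -0.22 to 0.051 for Ern1, -0.012 to 0.033 for Mthfd2, -0.090 to 0.045 for Ppp1r15a, -0.055 to 0.028 for Sel1l, -0.043 to 0.17 for Trib3 and -0.070 to 0.050 for Xbp1, and with LPS from -0.23 to 0.26 for Dnajb9 and -0.046 to 0.27 for Ssr1. The LPS differences ran from -0.44 to 0.053 for Dnajb9 and -0.20 to 0.027 for Trib3 in WT, and -0.011 to 0.061 for Asns and -0.035 to 0.14 for Creld2 in 3xGrk-/- cells. The interaction ran from -0.024 to 0.063 for Canx, -0.089 to 0.86 for Chac1 and -0.32 to 0.071 for Phgdh.

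Libraries with the same number deviated from their group means with correlations of -0.018 to 0.033 over genes. Such deviations include counting noise, so these correlations cannot decide whether the numbers pair the libraries, which the labels do not say. A fit with the replicate number as a block passed 129 of the 130 calls, losing Sel1l with LPS in WT (adjusted p = 0.0511), and gave Dnajb9 with LPS an effect of 0.0046.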
